A study of Mus musculus with 18 samples.

Results

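Wild type and Oct4 null mouse embryos were compared at E2.5, before the blastocyst forms, across all 7082 genes measured at that stage. The 6 libraries of this comparison, out of 18 in the series, were chosen by their stage labels. The wild type group (Oct4 +/+) and the null group (Oct4 -/-) held 3 libraries each, from untreated CD1 embryos flushed from the oviduct or uterus, and per the series text 3 embryos were sequenced for each genotype at each stage. How the null allele was made, and whether any group carries another allele, is not given in the sources used here. Polyadenylated RNA was amplified from oligo(dT), so that reads lie mainly near the 3′ ends of transcripts.

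Oct4, the product of Pou5f1, is a POU-domain transcription factor that is present from the oocyte onwards and is required for the inner cell mass to become pluripotent. At the morula stage all cells still contain it, and the first epithelium of the embryo, the trophectoderm, is being set up on the outside through adhesion, polarity and Hippo signalling. RNA stored in the oocyte is largely replaced by RNA of the embryo's own genes before this stage.

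Levels are CPM, reads per 1000000 reads of the library. Depth ranged from 868033 to 1922432 reads per library, with a median of 916720 in wild type and 1917754 in null libraries, so that 1 read was worth 0.5202 to 1.152 CPM. Differences are on the log2(CPM + 1) scale, wild type subtracted from null, and SE stands for their standard error. A gene is called where the adjusted p of limma, computed over all 7082 genes, was under 0.05.

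The third library of each group stood close to a mix of the other two, and wild type library 1 stood apart, at -43.8 on the first principal component (45.2% of the variance) against -7.5 to 14.3 for the other libraries. Wild type library 3 lay between wild type libraries 1 and 2 for 60.8% of genes, and null library 3 between null libraries 1 and 2 for 50.6%, where 3 exchangeable libraries give 33.3%. If the third libraries are not independent, the SEs and p-values below are too small. Wild type libraries 1 and 2 differed from each other more (SD over genes of their log2 difference 0.81) than null libraries 1 and 2 did (0.46). Results are therefore also given for libraries 1 and 2 of each group alone.

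Few genes were called, 42 of 7082 (0.593%). A further 359 had an adjusted p of 0.05 to 0.1, and 1444 (20.4%) had an unadjusted limma p under 0.05. The small number of calls thus does not show that the other genes were equal. Of the 42 called genes, 29 were higher in null embryos (0.409% of genes tested) and 13 were lower (0.184%). Their log2 differences were modest, with a median of 0.74 among the higher and -0.71 among the lower genes, and 6 of them exceeded 1 in absolute value. In each of the 42, no null library overlapped a wild type library, which held for 27.8% of all genes. The median log2 difference over all genes was -0.02.

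The calls depended on the libraries. With only libraries 1 and 2 of each group, limma called 1 gene (0.0141%), Pou5f1, and edgeR's quasi-likelihood test on the reads called 5 (0.0706%). All 42 genes kept their direction there, and all 42 had an unadjusted p under 0.05 in edgeR, against 8.01% of all genes. Libraries 1 and 2 had also entered the calls, so this is no independent check. Without any 1 of the null libraries, limma again called 1 gene, while leaving out wild type library 3 gave 9 calls, library 1 gave 390 and library 2 gave 773. On all libraries edgeR called 179 genes (2.53%), including all 42, and DESeq2 232 of 5434 (4.27%), including 41. No leave-out ended the call of Pou5f1, whereas each other gene described below as having risen or fallen lost its limma call without any 1 of the null libraries.

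**Figure D1:**
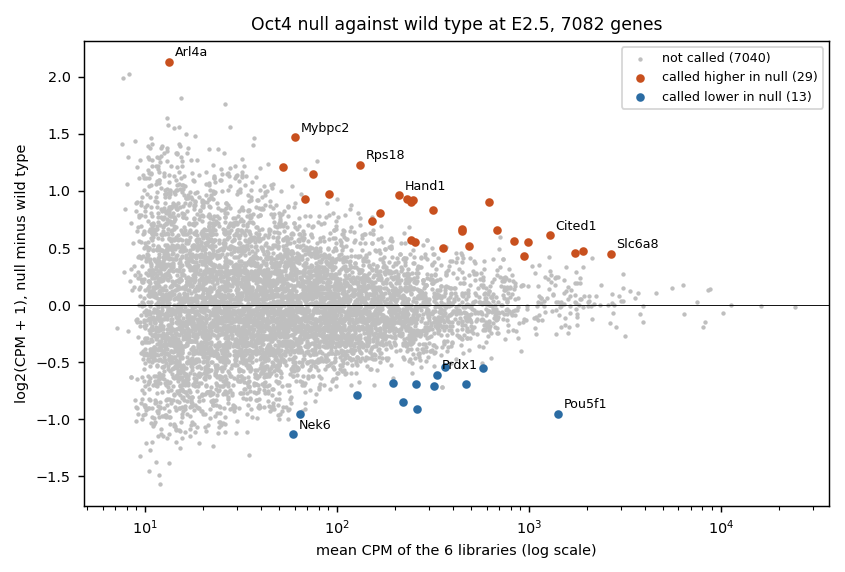
Mean CPM of the 6 libraries (log axis) against the log2(CPM + 1) difference, null minus wild type, for each of 7082 genes at E2.5; grey points are genes not called, and coloured points are the 29 genes called higher and the 13 called lower. Called genes lie mostly above 50 CPM, and among genes near 10 CPM differences of more than 1 in either direction are common without a call.

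The precision of the differences was then described. The 95% interval of the difference lay wholly within a 2-fold change in either direction for 4693 genes (66.3%), and within a 1.5-fold change for 1916 (27.1%). This share differed with abundance, as 90.1% of 3590 genes with a mean of at least 50 CPM in either group were held within 2-fold, against 41.7% of 3492 lower genes. With libraries 1 and 2 alone the number was 2814 (39.7%). An uncalled difference in a gene of low level is thus not shown to be absent.

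Pou5f1 (ENSMUSG00000024406), the targeted gene, was at 1809, 2093 and 1723 CPM in wild type libraries and at 931.1, 1011 and 963.1 CPM in null libraries. Every null library was below every wild type library, and the log2 difference was -0.95 (SE 0.08, 95% interval -1.13 to -0.77, adjusted p = 0.00105). About 0.516 of the wild type mean thus remained. The deleted part of the gene is not given in the sources used here and reads come from 3′ ends, so the remaining signal does not check the genotype. In bulk embryo RNA, fewer cells of a type and less RNA per cell cannot be told apart.

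Several genes of membranes, lysosomes and vesicle traffic were higher in null embryos. Ctsb, which encodes the lysosomal cysteine protease cathepsin B, was at 192, 229.3 and 261 CPM in wild type libraries and at 359.8, 452.6 and 396.8 CPM in null libraries. It rose by 0.83 (SE 0.13, adjusted p = 0.0239), and the groups were far apart. On the opposite strand it overlaps Fdft1, an enzyme of sterol synthesis, whose log2 difference was 0.72 (adjusted p = 0.0605). Whether the authors' counting used strand is not stated, so reads of such pairs cannot be told apart. The same holds for Tspan4 and Chid1 (0.44), Rps18 and Vps52 (0.85) and Nek6 and Psmb7 (0.02), with the log2 difference of the overlapping gene in brackets. Cstb, which encodes cystatin B, an inhibitor of cysteine cathepsins, went the other way. It was at 331.6, 468.9 and 391.5 CPM in wild type libraries and at 239.4, 238.8 and 244.6 CPM in null libraries, a fall of 0.71 on the log2 scale (SE 0.13, adjusted p = 0.0335). The wild type values were spread widely, while the null libraries sat within a few CPM of each other.

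Ppt2, a lysosomal thioesterase, was at 137.4, 99.07 and 129.7 CPM in wild type libraries and at 216.6, 210.7 and 212.2 CPM in null libraries, and rose by 0.81 (SE 0.14). Tspan4, a tetraspanin of the cell membrane, was at 102.5, 119.8 and 120 CPM in wild type libraries and at 202.7, 184.7 and 184.1 CPM in null libraries, and rose by 0.74 (SE 0.13). In both genes the lowest null library was well above the highest wild type library. Wdr45b, a WD-repeat protein of autophagy, rose by 0.50 (SE 0.09), from a wild type mean of 293.5 ± 12.56 CPM (SD, n = 3) to 415.4 ± 15.75 CPM. Vamp8, a SNARE of late endosomes, rose by 0.92 (SE 0.13), and Arl4a, a small GTPase of the Arl family, by 2.13 (SE 0.41). Arl4a was the greatest rise called and also the lowest gene called, at 5.454, 2.304 and 5.674 CPM in wild type against 26.43, 16.65 and 23.46 CPM in null libraries. Its wild type values all lie under the level of the authors' filter, so it entered the table only through the null group and had to differ. DESeq2 gave Arl4a no adjusted p.

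The families of these genes held few calls. Of 42 measured lysosome and proton pump genes 1 was called (2.38%, against 0.593% of all genes), and their median log2 difference was 0.02. Wholly above wild type were 9 and wholly below 6 (21.4% and 14.3%, against 13.6% and 14.1% of all genes), and edgeR called 3 higher. Their summed level was 5.94% higher in null libraries without overlap, and 5.16% higher without Ctsb, again without overlap. Ctsz and Glb1, another cathepsin and a lysosomal galactosidase, had differences of 0.60 (adjusted p = 0.0555) and 0.68 (0.0605), just short of a call. Of 28 SNARE genes, 6 had all null libraries above wild type and 3 had all below, with a median of 0.14. Their sum was 12.7% higher without overlap, and 5.18% higher with overlap when Vamp8 was left out. Of 45 Rab, Arf and Arl GTPases Arl4a alone was called, and 5 lay wholly above and 5 wholly below wild type.

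Transporters and metabolic enzymes were among the most abundant called genes. Slc6a8, the creatine transporter, was at 1961, 2466 and 2323 CPM in wild type libraries and at 3100, 3038 and 3068 CPM in null libraries, and rose by 0.45 (SE 0.08, adjusted p = 0.0333). Ckb, brain-type creatine kinase, was at 789.8, 776.5 and 844.7 CPM in wild type libraries and at 1115, 1075 and 1047 CPM in null libraries, and rose by 0.43 (SE 0.07, adjusted p = 0.0307). These were the smallest rises called. The replicates of Ckb were close, whereas the wild type libraries of Slc6a8 were spread more widely. Slc25a39, which carries glutathione into mitochondria, was at 358.9, 429.7 and 407.7 CPM in wild type libraries and at 545.6, 605 and 563.7 CPM in null libraries. It rose by 0.52 (SE 0.10). Flvcr2, a membrane transporter of the FLVCR family, rose by 0.57 (SE 0.11), from 195.1 ± 13.1 to 290.4 ± 11.63 CPM.

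Of 119 measured solute carriers, Slc6a8 and Slc25a39 were called (1.68%, against 0.593% of all genes). The 119 together summed to 14311 to 14734 CPM in wild type libraries and to 15331 to 16214 CPM in null libraries, a difference of 8.8%. Without these called carriers the difference was 2.41% and the groups overlapped. Of the family 18 genes lay wholly above wild type (15.1%, against 13.6% of all genes) and 17 wholly below (14.3%, against 14.1%). The median log2 difference was -0.06. Slc1a5, a glutamine transporter, was just short of a call in the other direction, at 67.85 CPM in wild type libraries and 36.16 CPM in null embryos (difference -0.89, adjusted p = 0.0555).

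Among enzymes, Alppl2, the alkaline phosphatase of early embryos, was at 1633, 1429 and 1742 CPM in wild type libraries and at 2198, 2186 and 2256 CPM in null libraries, a rise of 0.47 (SE 0.08, adjusted p = 0.0252). Cyp2s1, a cytochrome P450, was at 691.6, 614 and 710.9 CPM in wild type libraries and at 961.2, 1022 and 985 CPM in null libraries, a rise of 0.56 (SE 0.08). Neither gene had overlapping groups. Acot11, an acyl-CoA thioesterase, rose by 0.65 (SE 0.09) and Fam151a by 0.67 (SE 0.10). These genes overlap on opposite strands, and their values were nearly equal in each library (341.4 and 329.4 CPM in wild type library 1, 508.8 and 510.3 CPM in null library 1), so they count as 1 signal.

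Enzymes were also among the genes that fell. Prdx1, a peroxiredoxin that removes hydrogen peroxide, was at 441.8, 365.2 and 392.3 CPM in wild type libraries and at 270.2, 251.2 and 260.7 CPM in null libraries, a difference of -0.61 (SE 0.10, adjusted p = 0.0288). Lap3, a leucine aminopeptidase, was at 354.5, 270.7 and 334.8 CPM in wild type libraries and at 188, 191.9 and 209.1 CPM in null libraries, a difference of -0.69 (SE 0.12). Gde1, a glycerophosphodiester phosphodiesterase, was at 439.6, 419.3 and 441 CPM in wild type libraries and at 315, 290.3 and 286.3 CPM in null libraries, a difference of -0.54 (SE 0.09). The wild type libraries of Gde1 agreed within about 20 CPM, whereas those of Lap3 were spread more widely. Scd2, which desaturates fatty acids, fell by 0.69 on the log2 scale (SE 0.09). Of 24 redox genes measured, Prdx1 was called (4.17%, against 0.593% of all genes), 4 lay wholly below wild type (16.7%, near the 14.1% of all genes) and 0 wholly above. Sod1, superoxide dismutase, had a difference of -0.30 (adjusted p = 0.103) and Prdx4 one of -0.53 (0.118), and neither passed.

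**Figure D2:**
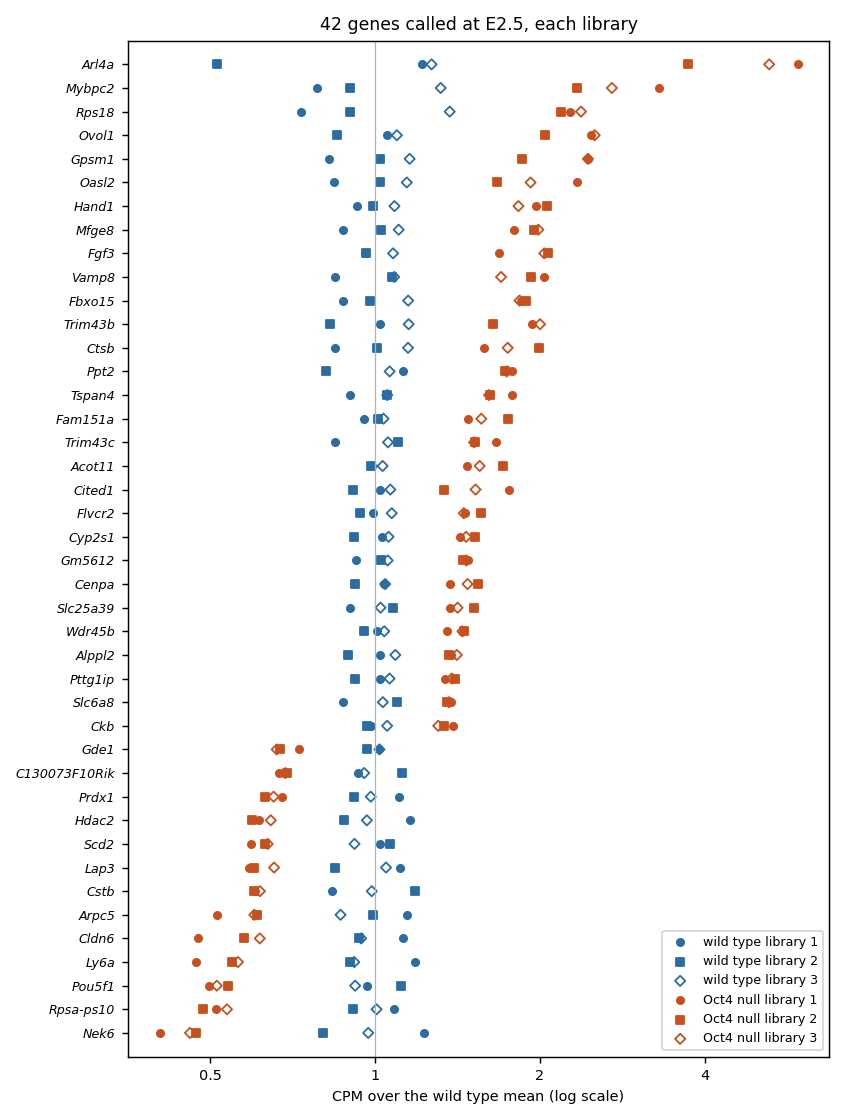
CPM of each library divided by the wild type mean of the gene (log axis) for the 42 genes called at E2.5, wild type libraries in blue and null libraries in orange, with open diamonds for library 3 of each group. In every gene the null libraries are either all above or all below the wild type libraries, and wild type library 3 often falls between wild type libraries 1 and 2.

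Fgf3, a fibroblast growth factor ligand, was at 44.72, 44.93 and 50.26 CPM in wild type libraries and at 78.57, 96.23 and 94.9 CPM in null libraries, a rise of 0.93 (SE 0.17, adjusted p = 0.0413). It was the 1 gene called of 20 measured in FGF and MAPK signalling (5%, against 0.593% of all genes). In this list 4 genes lay wholly above and 4 wholly below wild type (20% each, against 13.6% and 14.1%). At an unadjusted limma p under 0.05 there were 7 (35%, against 20.4%). The summed level was 9.58% higher in null embryos without overlap, and 7.03% higher without Fgf3, again without overlap. Without Map2k2, the member of greatest difference, it was 2.87% higher with overlap. Dusp1, a phosphatase that acts on MAP kinases, was at 8.787 CPM in wild type libraries and 24.66 CPM in null embryos, but did not pass (difference 1.38, adjusted p = 0.0924). Gpsm1, which binds G protein alpha subunits, was at 38.18, 47.23 and 53.5 CPM in wild type libraries and at 113.1, 85.83 and 113.2 CPM in null libraries, a rise of 1.15 (SE 0.19). Its opposite-strand neighbour Dnlz had a difference of 0.66 (adjusted p = 0.302). Oasl2, an interferon-inducible gene of the oligoadenylate synthetase family, was at 51.27, 62.21 and 69.71 CPM in wild type libraries and at 142.4, 102 and 117.3 CPM in null libraries, a rise of 0.97 (SE 0.18).

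Other pathways of the early embryo had no called gene. In the Hippo pathway 0 of 16 measured genes were called by limma, edgeR or DESeq2, and 3 had an unadjusted limma p under 0.05, against 20.4% of all genes. Tead4, its transcription factor at the outside of the embryo, was at 263.7 ± 30.26 CPM in wild type libraries and 285.5 ± 27.61 CPM in null embryos (difference 0.12, 95% interval -0.15 to 0.38). In TGF-beta, BMP and Nodal signalling limma called 0 of 11, with 4 at an unadjusted p under 0.05. Id3, a target of BMP signals, was at 41.27 and 94.8 CPM (difference 1.19, adjusted p = 0.0605), and the ligand gene Bmp7 at 18.88 and 54.7 CPM (1.46, 0.0776). In Wnt signalling limma called 0 of 11, with 3 at an unadjusted p under 0.05. Gsk3b, a kinase that restrains the pathway, was at 26.09 and 61.27 CPM and had the smallest adjusted p of all genes not called (difference 1.24, adjusted p = 0.0512). In both pathways edgeR and DESeq2 each called 2 genes, higher in edgeR, which called 1.82% of all genes higher.

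Further called genes encode secreted, surface or muscle-type proteins. Mfge8, a secreted glycoprotein that bridges dying cells to phagocytes, was at 138.5, 162.4 and 175.1 CPM in wild type libraries and at 284.9, 309.5 and 315 CPM in null libraries, a rise of 0.93 (SE 0.12). Ly6a, a surface antigen also known as Sca-1, was at 405.8, 308.7 and 313.7 CPM in wild type libraries and at 161.5, 187.3 and 192.4 CPM in null libraries, a difference of -0.91 (SE 0.13). Mybpc2, the fast-muscle form of myosin-binding protein C, was at 25.09, 28.8 and 42.15 CPM in wild type libraries and at 105.7, 74.91 and 86.56 CPM in null libraries, a rise of 1.47 (SE 0.23). All 3 genes had wide gaps between the groups relative to the spread within them.

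Genes of the lineages moved in different directions. Of 24 measured trophectoderm genes 3 were called (12.5%, against 0.593% of all genes), 8 lay wholly above and 3 wholly below wild type (33.3% and 12.5%), and 12 had an unadjusted limma p under 0.05 (50%, against 20.4%). Hand1 and Ovol1, transcription factors of trophoblast and epithelia, rose by 0.96 (SE 0.12) and 1.21 (SE 0.20), and Cldn6, a tight junction protein, fell by 0.85 on the log2 scale (SE 0.13). Cdx2, the central trophectoderm factor, was at 259.1 ± 20.11 CPM in wild type libraries and 257.3 ± 11.17 CPM in null embryos, and its 95% interval of -0.24 to 0.23 leaves room for small changes. Of 27 pluripotency genes 2 were called (7.41%), as Pou5f1 fell and Fbxo15, an F-box gene of pluripotent cells, rose by 0.90 (SE 0.10). Their summed level differed by -10.7%, by -4.8% without both and by 2.54% without Pou5f1, the targeted gene. Nanog, a pluripotency factor, was at 200.7 ± 18.36 and 213.8 ± 26.25 CPM, and its groups overlapped. Of 14 primitive endoderm genes Cited1, a transcriptional coactivator, was called higher, at 0.61 (SE 0.10). The summed level of these 14 was 24.1% higher in null embryos with Cited1 and 3.28% higher without it, where the groups overlapped.

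Adhesion and polarity genes leaned lower in null embryos. Of 42 measured, 16 had all null libraries below wild type and 4 had all above, against 14.1% and 13.6% of all genes, and the median log2 difference was -0.17 against -0.02. Their summed level was 7252, 7999 and 7764 CPM in wild type libraries and 6874, 6978 and 6928 CPM in null libraries, a difference of -9.71%, or -8.37% without Cldn6, the 1 member called. Dsp, the desmosomal protein desmoplakin, was at 89.32 CPM in wild type libraries and 46.56 CPM in null embryos (difference -0.91, adjusted p = 0.0537), and Msn, which links actin to the membrane, at 33.47 and 15.66 CPM (-1.02, adjusted p = 0.0859). The most abundant claudins had overlapping groups, with Cldn4 at 1200 and 1187 CPM (95% interval -0.19 to 0.17) and Cldn7 at 1479 and 1382 CPM (-0.32 to 0.14). After Cldn6, Cldn7 changed the sum most, by -96.78 CPM. Of 9 keratin, aquaporin and sodium pump genes, 0 were called by limma, edgeR or DESeq2, and 3 had an unadjusted limma p under 0.05 (33.3%, against 20.4% of all genes).

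Actin and tubulin genes had a lower summed level too. Arpc5, a subunit of the actin-nucleating Arp2/3 complex, was at 184.4, 160.1 and 139.4 CPM in wild type libraries and at 82.97, 98.31 and 96.99 CPM in null libraries, a fall of 0.79 on the log2 scale (SE 0.15, adjusted p = 0.044). It was the 1 member called of 53 (1.89%, against 0.593% of all genes), of which 10 lay wholly below wild type (18.9%, against 14.1%) and 4 wholly above (7.55%, against 13.6%). The 53 genes summed to 8153 to 9389 CPM in wild type libraries and to 7830 to 8031 CPM in null libraries, a difference of -9.05%, or -6.23% with overlap without Tuba4a and Arpc5l. Tuba4a, an alpha-tubulin, had a difference of -0.51 (adjusted p = 0.0558) and Arpc2, another Arp2/3 subunit, one of -0.09 (adjusted p = 0.604).

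Genes of the cell cycle were called in both directions. Cenpa, the histone H3 variant of centromeres, was at 828, 733.8 and 831.7 CPM in wild type libraries and at 1092, 1230 and 1176 CPM in null libraries, a rise of 0.55 (SE 0.08, adjusted p = 0.0202). Nek6, a mitotic kinase, was at 100.4, 65.67 and 79.44 CPM in wild type libraries and at 33.04, 38.49 and 37.54 CPM in null libraries, a difference of -1.13 (SE 0.20, adjusted p = 0.0346). It was the greatest fall called. Pttg1ip, which binds securin, rose by 0.46 (SE 0.07), from 1468 ± 107.8 to 2017 ± 43.91 CPM. Of 48 cyclin and mitosis genes, 12 lay wholly above wild type (25%, against 13.6% of all genes) and 5 wholly below (10.4%, against 14.1%), and their summed level was 8.4% higher in null embryos (5.33% without the called members). Of 43 MCM and replication genes limma, edgeR and DESeq2 called 0, with 6 at an unadjusted limma p under 0.05 (14%, against 20.4% of all genes). Of the 43, 5 lay wholly above and 5 wholly below wild type. Their summed level differed by -7.17%, and by -6.28% with overlap without Gmnn, a replication inhibitor.

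Maternal and cleavage-stage transcripts included a small family that rose. Trim43b, a TRIM gene active at cleavage stages, was at 173.4, 140.5 and 195.4 CPM in wild type libraries and at 328.2, 278.3 and 339.5 CPM in null libraries, a rise of 0.90 (SE 0.14). Its paralogue Trim43c was at 450.5, 585.2 and 561.8 CPM in wild type libraries and at 886.3, 811.5 and 806.7 CPM in null libraries, a rise of 0.66 (SE 0.11). Trim43a, at 16.04 CPM in wild type libraries and 37.02 CPM in null embryos, did not pass (1.15, adjusted p = 0.0605). These paralogues may share reads, but their sum did not overlap between groups either, at 642.5, 740.8 and 771.7 CPM in wild type libraries and 1245, 1127 and 1189 CPM in null libraries. Without Trim43b and Trim43c, the measured genes of the 2-cell list summed to a level 0.465% higher in null embryos, with overlap. Of 54 listed oocyte and maternal-effect genes 9 were measured, of which limma and edgeR called 0 and DESeq2 1. At an unadjusted limma p under 0.05 there were 2 (22.2%, against 20.4% of all genes). Padi6, of the oocyte cytoplasmic lattices, was at 42.21 and 62.71 CPM (difference 0.58, adjusted p = 0.156), and Khdc3, of the subcortical maternal complex, at 587.6 and 543.2 CPM.

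Housekeeping machinery was close between genotypes. Translation initiation and elongation factors (60 genes) summed to 36391 to 36976 CPM in wild type libraries and 36462 to 36641 CPM in null libraries, a difference of -0.0684%. Proteasome subunits (45 genes) differed by -0.845% and cytosolic ribosomal proteins (69 genes) by -2.31%, and in both the groups overlapped. Rack1, the most abundant gene, was at 24624 CPM in wild type libraries and 24228 CPM in null embryos. Limma and edgeR called 0 of these factors and 0 of the proteasome genes, and DESeq2 called 2 and 0. At an unadjusted limma p under 0.05 there were 8 and 3 (13.3% and 6.67%, against 20.4% of all genes).

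Of 5 mitochondrial lists, 3 had a lower summed level in null embryos without overlap, and limma called 0 genes in any of the 5. The mitochondrial ribosome (75 genes) summed to 13733, 13551 and 13519 CPM in wild type libraries and 12615, 12521 and 12703 CPM in null libraries, a difference of -7.26%. At an unadjusted limma p under 0.05 there were 13 (17.3%, against 20.4% of all genes), and edgeR called 2 and DESeq2 3 of these genes. Respiratory chain and ATP synthase genes encoded in the nucleus (83 genes) differed by -5.57%, and the 10 mitochondrially encoded transcripts by -6.27%, both without overlap of the groups. Of these, 21 and 2 had an unadjusted limma p under 0.05 (25.3% and 20%), edgeR called 1 and 0, and DESeq2 2 and 0. The median log2 difference was -0.12 for the mitochondrial ribosome and -0.10 for the nuclear respiratory genes. Single genes went both ways, with Atp5g3, a subunit of ATP synthase, at 3446 and 2857 CPM (difference -0.27, adjusted p = 0.0607) and Uqcc1, an assembly factor of complex III, at 90.88 and 143 CPM (0.65, 0.0558). For the 10 mitochondrially encoded transcripts the median was -0.03, 1 lay wholly below wild type, and without mt-Cytb and mt-Nd1 the sum differed by 1.39% with overlap. Mitochondrial import genes (25) differed by 1.19% in sum and TCA cycle genes (28) by -0.37%, both with overlap, and 4 and 7 of them had an unadjusted limma p under 0.05 (16% and 25%). Glycolysis genes, of which 12 of 24 were measured, differed by 2.72%.

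Genes of nucleotide metabolism went both ways. Of the 33 pentose phosphate and nucleotide synthesis genes, 7 lay wholly above and 7 wholly below wild type, with a median of 0.08. These are 21.2% each, against 13.6% and 14.1% of all genes. The 33 pentose phosphate and nucleotide synthesis genes summed to 14890 to 15713 CPM in wild type libraries and 16259 to 17477 CPM in null libraries, 9.29% higher, and 2.34% higher with overlap without Hprt and Aprt. Limma called 0 of them and edgeR and DESeq2 2 each. At an unadjusted limma p under 0.05 there were 13 (39.4%, against 20.4% of all genes). Hprt, which salvages purines, was at 1836 and 2438 CPM (difference 0.41, adjusted p = 0.0558), and Aprt, another salvage enzyme, at 2803 and 3380 CPM (0.27, adjusted p = 0.0793).

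Chromatin genes contributed 1 call. Hdac2, a class I histone deacetylase, was at 280.3, 212 and 233.5 CPM in wild type libraries and at 148.3, 144.1 and 155.9 CPM in null libraries, a difference of -0.68 (SE 0.13, adjusted p = 0.044). It was the 1 gene called of 21 in deacetylase complexes (4.76%, against 0.593% of all genes), and Rcor1, a partner of deacetylases, had a difference of 0.74 (adjusted p = 0.0575). Eed, a subunit of the Polycomb complex that methylates histone H3, was at 194.2 and 130.1 CPM (-0.57, adjusted p = 0.0558). Histone methyltransferases, demethylases and acetyltransferases (37 genes) differed by -7.08% in summed level and DNA methylation genes (9 measured) by -8.15%, without overlap of the groups. Of these, limma called 0 in both, edgeR 1 and 0 and DESeq2 1 and 0. At an unadjusted limma p under 0.05 there were 9 and 4 (24.3% and 44.4%, against 20.4% of all genes). Dppa3, which protects methylation in the early embryo, was the most abundant of the latter at 1505 and 1268 CPM (-0.25, adjusted p = 0.0926), and without it the sum differed by -1.81% with overlap. Without Ash2l the former differed by -4.48%, also with overlap.

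Over all 52 lists, 21 of 1738 listed genes were called (1.21%, against 0.593% of all genes), and the other 21 called genes were in no list. The lists were chosen with earlier results of these data known, so the higher share is not a result about them. Lists with no called gene numbered 35. Among the larger of these were splicing and RNA-binding genes (92 measured), Zfp zinc finger genes (67, median log2 difference 0.02), ribosome biogenesis genes (65, median 0.09) and heat shock proteins with chaperonins (55, median -0.09). Of the latter 17 lay wholly below wild type (30.9%, against 14.1% of all genes) and 7 wholly above, edgeR called 1 and DESeq2 2, and their sum was 3.35% higher without overlap (0.462% with overlap without Hsp90ab1). The summed level did not overlap between groups for 21 lists, with null embryos above in 10 and below in 11. These sums are shares of a fixed total and some lists share genes, so the shifts are not independent of each other. The sums without their leading members were added after seeing the data.

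**Figure D3:**
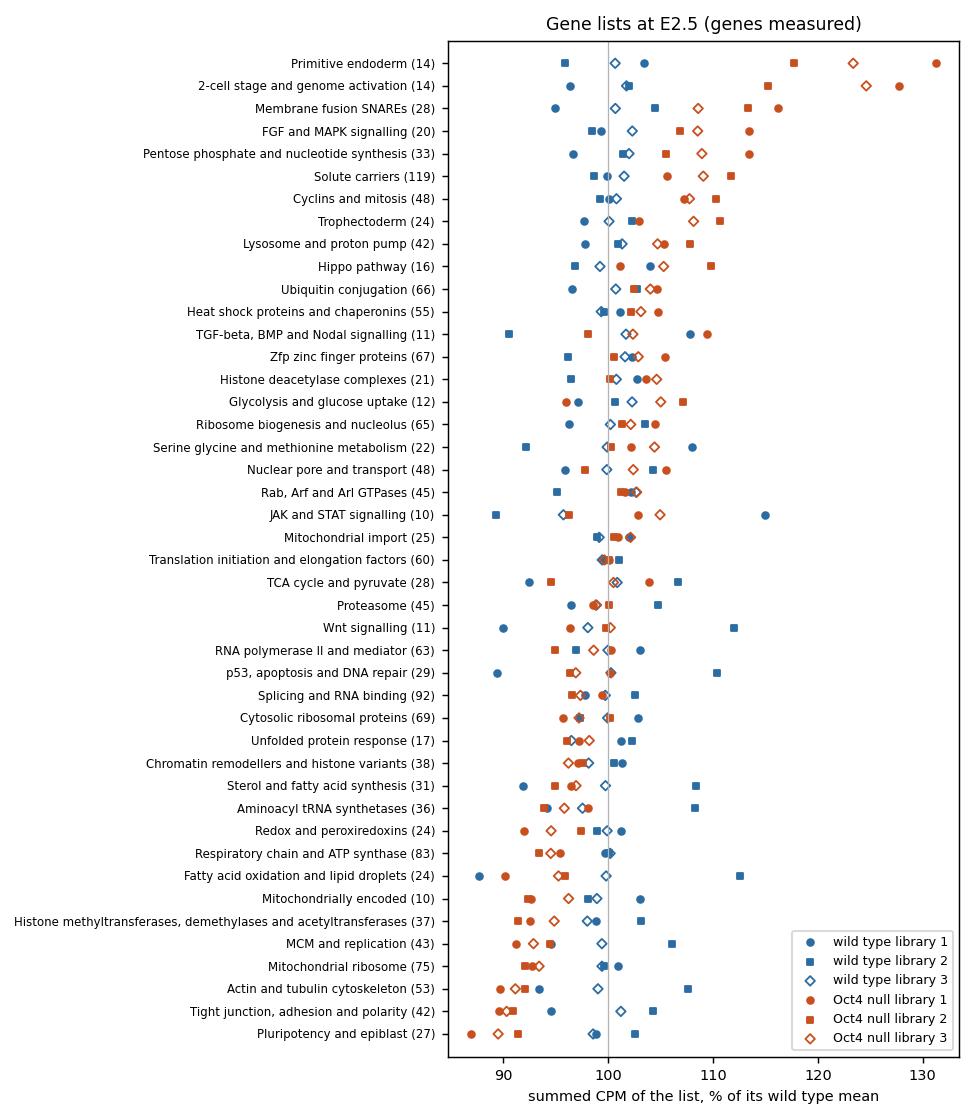
Summed CPM of each list in each library as a percentage of the wild type mean of that list, for lists with at least 10 measured genes (number in brackets), sorted by the mean of the null libraries. Primitive endoderm and 2-cell genes stand highest in null embryos, at 24.1% and 22.5% above wild type, and pluripotency genes lowest, with a difference of -10.7% that includes the targeted gene and turns to 2.54% without it.

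A pair of called genes had near-identical copies elsewhere in the genome. Rps18, a protein of the small ribosomal subunit (GRCm38 chr17:33951999-33956001, minus strand), was at 58.91, 72.58 and 110.2 CPM in wild type libraries and at 182.8, 176.3 and 191.4 CPM in null libraries, a rise of 1.23 (SE 0.20). Its processed pseudogene Rps18-ps3 (chr8:107262793-107263248, minus strand) was at 544.3, 486.2 and 303.2 CPM in wild type libraries and at 263.6, 259.6 and 262.3 CPM in null libraries. The copy was not called (difference -0.72, adjusted p = 0.0747). The differences of the gene and its copy thus had opposite signs. Their summed level overlapped between the groups, at 413.4 to 603.2 CPM in wild type libraries and 435.9 to 453.7 CPM in null libraries. Rpsa-ps10 (chr3:150072658-150073542, minus strand), a processed pseudogene of the ribosomal protein gene Rpsa (chr9:120127689-120132369, plus strand), was at 91.63, 77.19 and 85.11 CPM in wild type libraries and at 43.32, 41.09 and 45.37 CPM in null libraries, a difference of -0.95 (SE 0.17). Rpsa itself was at 24, 42.63 and 29.99 CPM in wild type libraries and at 42.59, 40.57 and 33.89 CPM in null libraries, with overlap. Summed with each other and with Rpsa-ps12, they were lower in null libraries without overlap. These sums were 123.3, 130.2 and 122.4 CPM in wild type libraries and 96.92, 92.07 and 90.21 CPM in null libraries. Both pairs are uncertain, because the authors' counting could split reads between them. The last 90 coding bases of each pair, taken from GENCODE M21 transcripts on GRCm38, are shown 5′ to 3′ because oligo(dT) priming draws reads from this end, with the base that differs within a pair in capitals:
Rps18: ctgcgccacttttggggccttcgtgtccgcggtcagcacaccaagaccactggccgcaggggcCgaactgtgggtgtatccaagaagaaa
Rps18-ps3: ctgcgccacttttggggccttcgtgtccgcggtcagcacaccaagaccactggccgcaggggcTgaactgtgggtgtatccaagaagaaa
Rpsa: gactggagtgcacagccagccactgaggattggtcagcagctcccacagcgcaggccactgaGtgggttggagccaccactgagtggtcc
Rpsa-ps10: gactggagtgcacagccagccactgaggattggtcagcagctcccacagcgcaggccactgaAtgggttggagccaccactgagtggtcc

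Within these 90 bases each pair differs at 1 base. Over the whole coding stretch, Rps18 and Rps18-ps3 differ at 3 of 456 bases and Rpsa and Rpsa-ps10 at 6 of 885, so both pairs are 99.3% identical. Gm5612, another processed pseudogene, rose by 0.55 (SE 0.10), from 207 ± 14.25 to 302.7 ± 3.252 CPM.

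Genes near Pou5f1 were described because embryos chosen for an allele can share the chromosome around it. Of the 25 measured genes on each side, 1 was called (2%, against 0.593% of all genes), namely Ppt2. Groups did not overlap for 18 of them (36%, against 27.8% of all genes). The median absolute log2 difference was 0.33 among these 50 genes and 0.26 among all. With 10 genes on each side 0 were called, 45% did not overlap, and the median absolute difference was 0.40. With 50 genes on each side the called genes were Ppt2 and Rps18, 39% did not overlap, and the median was 0.34. H2-D1, a class I histocompatibility gene, was at 62.03 CPM in wild type libraries and 34.46 CPM in null embryos (difference -0.82, adjusted p = 0.0764). Stk19 was at 26.1 and 50.17 CPM (0.92, adjusted p = 0.0696). A part of the flanking chromosome in these differences was not tested.

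**Figure D4:**
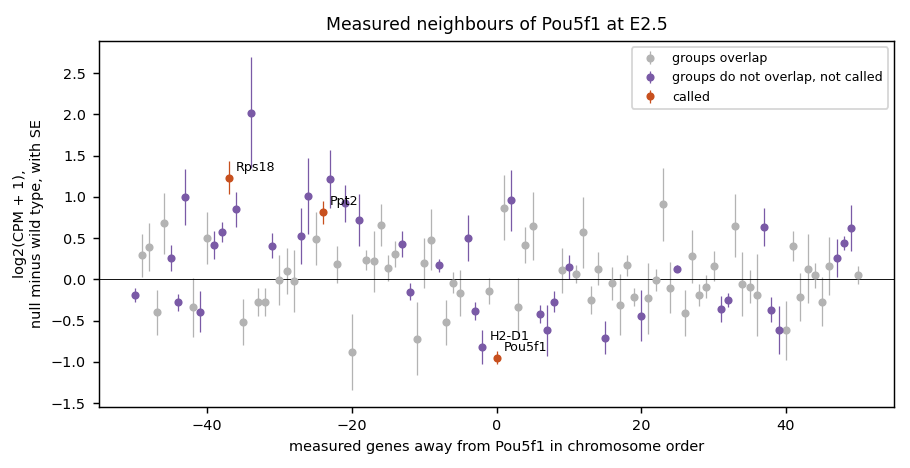
Log2(CPM + 1) difference, null minus wild type, with SE, for the 50 measured genes on each side of Pou5f1, in the order of genes along chromosome 17. Pou5f1, Ppt2 and Rps18 are the called genes. From H2-Ab1 to Lsm2 (places -27 to -13) all genes but Dxo lie above 0, while elsewhere both directions occur.

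The octamer ATGCAAAT, to which POU factors bind, was searched on both strands in 300 bases of promoter per gene (250 before and 50 after the start, RefSeq, GRCm38.p6). It was present in 0 of the 29 called genes that had a promoter sequence and in 74 of 5304 measured genes (1.4%). These letters are absent from those windows, which says nothing about other sites.

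Genes of other cell types were checked. Of 27 listed genes of maternal blood, vessel and tract cells, 6 were measured, and they summed to 1264 to 1753 CPM in wild type libraries and 1387 to 1640 CPM in null libraries. Haemoglobin genes made up most of it, with Hbb-bs at 876 and 846.2 CPM and Hba-a1 at 262.8 and 238.8 CPM, and their groups overlapped. Eif2s3y, the 1 measured Y-linked gene, was present in all 6 libraries at 8.811 to 21.85 CPM.

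The genes called at E2.5 were followed into the blastocyst, where levels come from tables scaled separately for each stage. Of 38 that were measured at E3.75, 19 were called there in the same direction, against 8.2% of all genes called at that stage in either direction. Among the genes higher at E2.5, 12 of 25 were again called higher (3.6% of all genes were), and among the lower genes 7 of 13 were again called lower (4.6% of all genes were). The 7 include Pou5f1, the targeted gene, and the 12 count Acot11 and Fam151a, which make 1 signal, separately. Trim43c held a difference of 0.71 (SE 0.09, adjusted p = 4.78e-05), Alppl2 one of 0.80 (SE 0.09, 7.43e-06) and Cyp2s1 one of 0.77 (SE 0.11, 8.57e-05). Cstb, at -0.60 (SE 0.09, 0.000128), and Lap3, at -0.50 (SE 0.09, 0.00118), remained lower in null embryos.

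C130073F10Rik was the 1 gene called in opposite directions. At E2.5 it was at 638.1, 767.3 and 655.8 CPM in wild type libraries and at 458.9, 473.9 and 470.9 CPM in null libraries, a difference of -0.55 (SE 0.09, adjusted p = 0.0272). At E3.75 its difference was 0.42 (SE 0.07, adjusted p = 0.000528). Over all measured genes the genotype effect differed between E2.5 and E3.75 for 1.54%, and among the called genes for 7. Between E2.5 and E4.5 it differed for 0.105% of genes, and for 4 of the called ones.

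At E4.5 limma called 0 of 6545 genes, and 985 (15%) had an unadjusted p under 0.05. Of the E2.5 genes 36 were measured there, and 28 lay in the same direction, 20 of 23 higher and 8 of 13 lower genes. These again include Pou5f1 and both Acot11 and Fam151a. Without null library 1 of E4.5, 6 of the E2.5 genes were called in the same direction. Cited1, for example, had a difference of 0.74 (SE 0.16, adjusted p = 0.136) and Slc6a8 one of 0.45 (SE 0.14, 0.191), close to their values at E2.5. Lap3 and Cstb, at 0.01 and -0.03, were near 0.

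**Figure D5:**
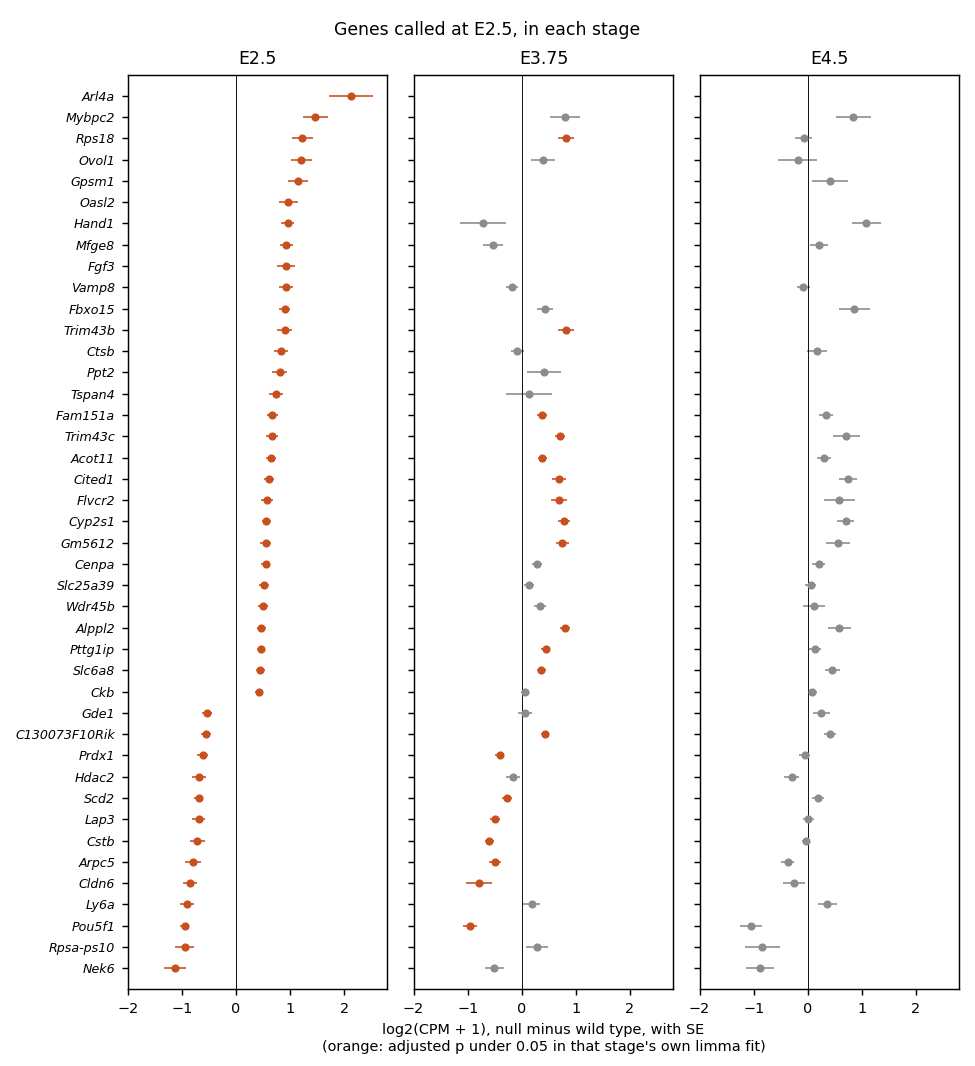
Log2(CPM + 1) difference, null minus wild type, with SE, for the 42 genes called at E2.5, with 1 panel per stage; orange marks an adjusted p under 0.05 in that stage's own fit, and genes without a point were not measured there. Cited1 and Pou5f1 have similar values at each stage, while Hand1, Mfge8 and Vamp8 lie below 0 at E3.75 without a call there.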

How the data were processed

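RNA-seq of E2.5 embryos was analysed in 3 wild type and 3 Oct4 null libraries, grouped by the labels. The authors deposited CPM values, 1 table per stage, each scaled to 1000000 per library, and low genes had been removed, since every gene reached 10.28 CPM or more in 3 of the 6 libraries. Per the submitters' processing notes, edgeR and the build mm9 were used. Aligner, counting tool, strand setting and annotation: not given in the sources used here. CPM values were whole multiples of 1 read for 121650 of 121650 values (100%, within 0.01 reads), which gave depths and reads for count tests. Replicates may be technical: nothing beyond the series text says that they are separate cultures or litters, and p-values then reflect only how these libraries vary.

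limma 3.58.1 (R 4.3.3) with a variance trend was fitted to log2(CPM + 1), which understates changes of low genes, two-sided, with Benjamini-Hochberg adjustment over 7082 genes. Intervals and SEs are limma's. edgeR 4.0.16 (quasi-likelihood) and DESeq2 1.42.0 on the recovered reads were alternatives. DESeq2 gave no adjusted p for 1648 genes. Differences between stages were fitted over the libraries of both stages, in limma. Of 7082 genes, 6968 had a symbol and a place in GENCODE M21 by identifier. Simulated reads for the 7082 genes, with known changes in a part of them, were used to test the script. Among the changed genes, limma found 42% of those changed 1.5-fold, 78% of those changed 2-fold and 100% of those changed 4-fold. These shares were not split by level, so they do not give the sensitivity for genes of low level. Sensitivity where library 3 is close to a mix of libraries 1 and 2 is not given by them either.

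The named genes are Pou5f1, every called gene, up to 3 members of smallest p and the 2 of highest level of each list, the 10 genes of highest level, the called and 5 further neighbours of Pou5f1 of smallest p, and the 10 greatest differences among genes of at least 20 CPM. Rps18-ps3, Rpsa, Nanog, Cdx2, Arpc5l and the genes overlapping called ones were named outside this rule, after their values were seen. The 52 lists and the members were chosen with earlier results of these data known.

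Alternatives were leaving out each library, libraries 1 and 2 only, scaling by TMM or by DESeq2 size factors, a pseudocount of 0.1 or 5, a mean of at least 10 CPM, thinned reads, a replicate block and other neighbour ranges.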

Additional observations from a re-analysis of the deposited data

Results flagged for a closer look

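For 7 of the genes called at E2.5 the genotype effect differed from that at E3.75 by limma's interaction test, adjusted over 5893 genes. The effect at E2.5 less that at E3.75 was 0.92 for Ctsb (SE 0.19, adjusted p = 0.0194), 1.47 for Mfge8 (SE 0.22, 0.00276), 1.68 for Hand1 (SE 0.35, 0.0211) and 1.10 for Vamp8 (SE 0.17, 0.00324), all of which were higher in null embryos at E2.5 and had negative differences of -0.09, -0.53, -0.72 and -0.18 at E3.75. It was -1.10 for Ly6a (SE 0.25, 0.0354), -1.23 for Rpsa-ps10 (SE 0.30, 0.0466) and -0.97 for C130073F10Rik (SE 0.11, 0.000124), which were lower at E2.5 and had positive differences of 0.18, 0.28 and 0.42 at E3.75. Hand1 was low at E3.75, at 13.16, 16.98 and 12.15 CPM in wild type and 4.624, 9.45 and 11.82 CPM in null libraries. These values lie near the level of the authors' filter at that stage, 10.4 CPM, where 1 read was worth up to 1.88 CPM.

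Against E4.5 the effect differed for 4 of them, adjusted over 5728 genes, of which 0.105% passed. The effect at E2.5 less that at E4.5 was -1.28 for Ly6a (SE 0.24, adjusted p = 0.0379), -0.87 for Scd2 (SE 0.15, 0.0379), -0.96 for C130073F10Rik (SE 0.15, 0.0348) and 1.01 for Vamp8 (SE 0.18, 0.0379). Without wild type library A or C, or null library 2 or 3, of E4.5 the number was 0, and for E3.75 it was 0 with libraries 1 and 2 only, 3 without wild type library 3 and 4 without null library 3 of E3.75. These genes had been selected for their effect at E2.5, so a smaller effect at another stage is built into the choice, whereas opposite signs are given as measured.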

How the results depend on the processing

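Pou5f1 kept its direction and its call under every alternative run, with log2 differences of -1.01 to -0.87 when 1 library was left out. None of the 42 called genes changed direction in any alternative that gave it an adjusted p. No other named gene was called in the opposite direction, but changes of sign without a call were not recorded. Summed levels of lists were not rerun under the alternatives. The number of genes called at E2.5, 42 with all libraries, ranged from 1 to 773 when 1 library was left out and was 1 with libraries 1 and 2 only, 99 with TMM factors, 93 with DESeq2 size factors, 179 with edgeR's test and 232 with DESeq2's. An edgeR fit of libraries 1 and 2 only, chosen after seeing the data, called 5. Genes held within 2-fold numbered 2814 with libraries 1 and 2 only, against 4693. Called list members, 21 with all libraries, ranged from 1 to 215 without 1 library and were 1 with libraries 1 and 2 only, 35 with TMM and 34 with DESeq2 size factors. Called neighbours of Pou5f1 ranged from 0 to 11 without 1 library, and were 0 with libraries 1 and 2 only, 0 among 10 genes on each side and 2 among 50. Genes whose effect differed from E3.75 numbered 3 to 8 without 1 library of E3.75 and 0 with libraries 1 and 2 only. Against E4.5 they numbered 0 to 5 without 1 library of E4.5, and the E2.5 genes called at E4.5 numbered 0 to 6. The cause was not tested in any of these, except that fewer samples enter where libraries are left out. TMM moved the median of all genes by 0.018 and DESeq2 size factors by 0.015 on the log2 scale.

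The replicate numbers showed no clear pairing: the correlations of same-numbered deviations from the group means were 0.0371, 0.121 and -0.00302. Those of differently numbered libraries ranged from -0.0947 to 0.0867. With library 3 close to a mix of libraries 1 and 2, these correlations cannot decide whether libraries are paired. With a replicate block 30 genes were called, 27 of them among the 42. Depth limits low genes most.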
